A study of Saccharomyces cerevisiae with 12 samples.

Results

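The 10 branched-chain amino acid synthesis genes LEU1, LEU4, LEU9, BAT1, BAT2, ILV1, ILV2, ILV3, ILV5 and ILV6 were taken by symbol from 3 deposited dose tables of budding yeast. They are 10 of the 5085 genes that each table lists, and all 10 had a level and a test at every dose. RNA had been sequenced from log-phase cells in 4 groups of 3 samples: 0.01, 0.1 or 0.5 µg/mL doxycycline, and a control. All groups share 1 haploid strain, TH_5234, which is MATa and carries RAP1 behind a tetracycline-repressible promoter (pRAP1::kanR-tetO7-TATA), the activator at URA3 (URA3::CMV-tTA) and the alleles his3-1, leu2-0 and met15-0. The activator drives RAP1 until doxycycline releases it, and the comparisons ask how transcripts respond when RAP1, which encodes an essential DNA-binding regulator, is turned down. The activator and the repressible promoter are thus present in the control too, and no group without them received doxycycline. A response to doxycycline itself and a response to lower RAP1 therefore cannot be told apart here. RAP1 mRNA was called lower at 0.5 µg/mL only, as given below.

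Valine, isoleucine and leucine are built by a shared set of enzymes, most of them in mitochondria. Threonine deaminase (Ilv1) opens the isoleucine branch, and acetolactate synthase (catalytic subunit Ilv2, regulatory subunit Ilv6), the reductoisomerase Ilv5 and the iron-sulphur dehydratase Ilv3 act in both the valine and the isoleucine branch. Leucine branches off through the isopropylmalate synthases Leu4 and Leu9, the cytosolic iron-sulphur isomerase Leu1 and the dehydrogenase Leu2, and the aminotransferases Bat1 (mitochondrial) and Bat2 (cytosolic) add the amino group at the end. The zinc-cluster factor Leu3, which activates when it has bound the product of Leu4 and Leu9, and the general amino acid regulator Gcn4 are the textbook activators of this pathway.

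Upstream sequences of the genes hold the DNA motifs of these activators, which is why they are shown here. Windows of 500 bases before the start codon, read from the R64 reference assembly (RefSeq), were searched on both strands for the Leu3 motif CCGNNNNCGG and for the Gcn4 motifs TGACTC and TGANTCA, which overlap in TGACTCA. Each line gives 5′ to 3′ along the gene 1 motif, in capitals, with 20 bases on either side. Of several matches to a gene, the Leu3 match farthest upstream is given, or the Gcn4 match where there is no Leu3 match (for ILV3 the TGACTCA).
LEU9, Leu3 motif, plus strand, chrXV:522730-522779: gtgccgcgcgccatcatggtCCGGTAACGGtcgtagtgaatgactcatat
LEU1, Leu3 motif, minus strand, chrVII:478840-478889: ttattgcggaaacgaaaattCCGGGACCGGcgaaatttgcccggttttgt
BAT1, Leu3 motif, plus strand, chrVIII:517365-517414: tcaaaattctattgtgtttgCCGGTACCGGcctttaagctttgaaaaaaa
BAT2, Leu3 motif, plus strand, chrX:705390-705439: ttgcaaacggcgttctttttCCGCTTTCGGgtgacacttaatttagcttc
ILV2, Leu3 motif, plus strand, chrXIII:483596-483645: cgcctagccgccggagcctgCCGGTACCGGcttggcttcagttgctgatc
ILV5, Leu3 motif, minus strand, chrXII:839601-839650: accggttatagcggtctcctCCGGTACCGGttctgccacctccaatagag
ILV3, Gcn4 motif, minus strand, chrX:466317-466363: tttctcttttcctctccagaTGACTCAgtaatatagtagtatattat
LEU4, Gcn4 motif, minus strand, chrXIV:426829-426875: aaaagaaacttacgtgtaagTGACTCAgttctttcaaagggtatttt
ILV6, Gcn4 motif, minus strand, chrIII:105672-105718: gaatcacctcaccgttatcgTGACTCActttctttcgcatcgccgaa
ILV1, Gcn4 motif, plus strand, chrV:328324-328369: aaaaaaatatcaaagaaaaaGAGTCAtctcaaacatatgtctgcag
In ILV1 the motif lies on the opposite strand and reads GAGTCA here.

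The Leu3 motif was found before 6 of the 10 genes (LEU1, LEU9, BAT1, BAT2, ILV2 and ILV5) and before 198 of 6019 protein-coding genes of the assembly, or 3.29%. One or the other Gcn4 motif was found before 9 of the 10, BAT2 being the exception, and before 19.5% of the 6019. The Rap1 consensus, searched with no mismatch, was found before 0 of the 10 genes and before 0.299% of the 6019. The search describes letters in a window and not binding, and a window without a match says nothing about the factor.

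Each level given here is the authors' pooled level of a group, in FPKM (fragments counted per kilobase, scaled for depth; the unit was inferred from the column names), so no SD can be given and the depth is unknown. A gene was called where the authors' q, a p-value they adjusted for multiple tests, was below 0.05. Nothing in the labels tells if samples of 1 group were separate cultures, so q measures a spread that may be technical. Per the authors' deposited tables RAP1 mRNA was called lower at 0.5 µg/mL only (22.0 FPKM against 31.5 FPKM in the control, q = 0.00764), with log2 fold changes of 0.07 at 0.01 and -0.02 at 0.1 µg/mL that were not called. Over all tested genes the median log2 fold change was -0.08, -0.03 and -0.30 with rising dose, so that the medians and some values below are also given relative to it. FPKM are relative levels of bulk RNA, in which less RNA per cell and fewer cells that make a transcript cannot be told apart. LEU2 was listed at 0 in every group of the authors' deposited tables, as was MET17 (MET15), and was not tested. In this leu2-0 strain the leucine branch described above thus had no transcript level for its dehydrogenase step in any group. In control cells, the 5 markers of MATa cells stood between 101 FPKM (STE6) and 121867 FPKM (MFA1) and the 4 markers of MATalpha cells between 15.3 FPKM (STE3) and 204 FPKM (MF(ALPHA)2), as listed beside the highest dose by the authors' deposited tables.

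All 10 genes had negative log2 fold changes at every dose, and the number called grew with dose. At 0.01 µg/mL 5 of 10 fell and 0 rose (LEU9, ILV3, BAT2, ILV1 and BAT1), where 15.4% of all tested genes fell and 8.75% rose. At 0.1 µg/mL 7 of 10 fell and 0 rose, LEU4 and ILV5 being added, against 20.4% and 17.6% of all tested genes. At 0.5 µg/mL all 10 fell, LEU1, ILV2 and ILV6 being added, where 38.9% of all tested genes fell and 7.49% rose. The control levels of the 10 were above those of 67.8% (LEU9) to 95.9% (ILV5) of tested genes. The calls were not compared with those of genes of like level. The median log2 fold change of the 10 was -0.57, -0.70 and -1.01 with rising dose, or -0.50, -0.67 and -0.70 relative to the median of all tested genes. Read that way, the medians at 0.1 and 0.5 µg/mL were close, while the number called grew by 3. Each of the 10 stood below the median of all tested genes at each dose. The same 5 genes that fell at 0.01 µg/mL fell at all 3 doses, as did 14.8% of the 5041 genes tested at every dose. The 3 comparisons share the control samples, so that their agreement in direction is not independent.

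**Figure D1:**
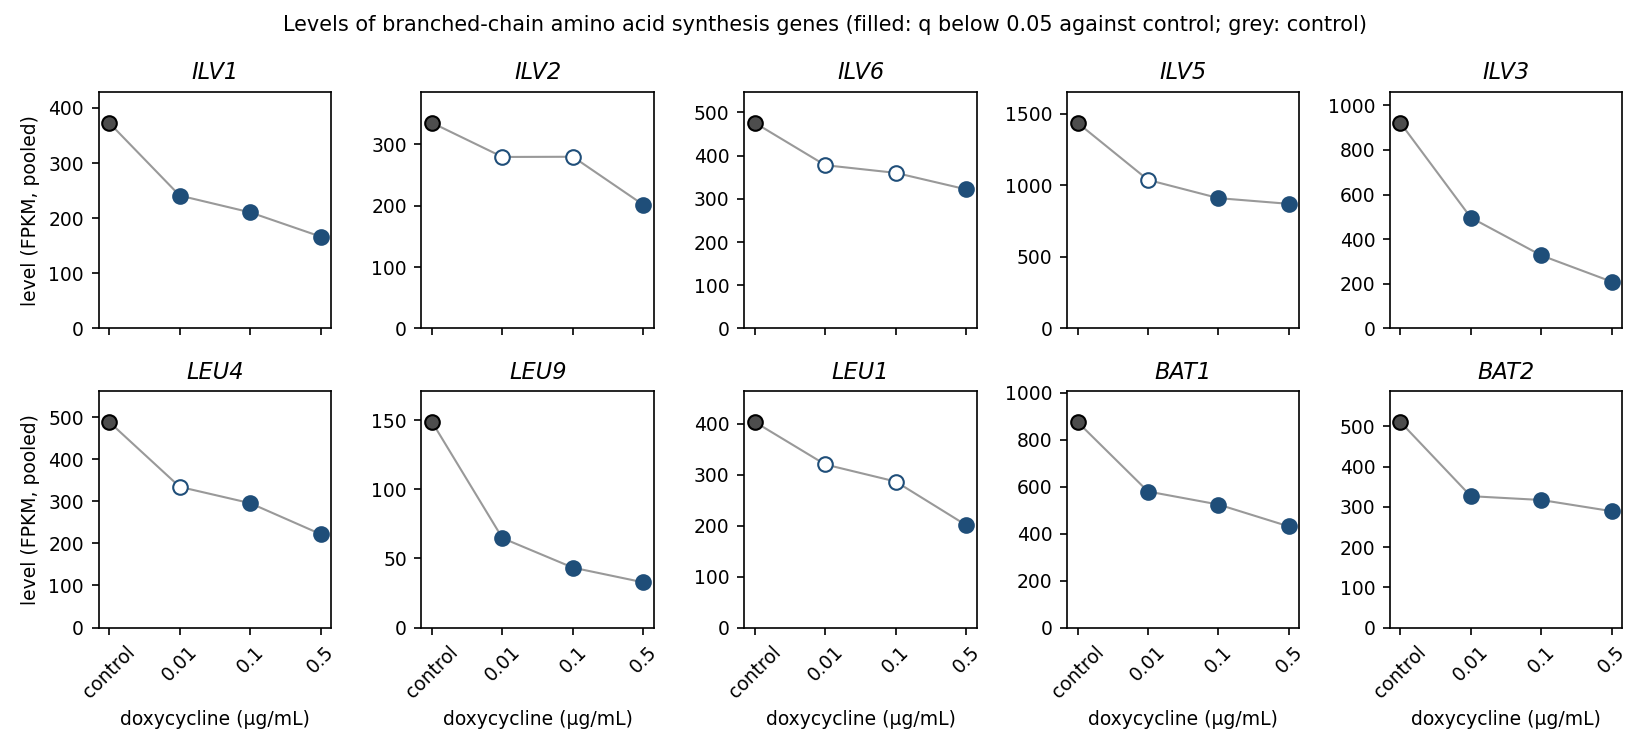
Pooled level in FPKM (linear axis from 0, 1 panel per gene) of the control and of 0.01, 0.1 and 0.5 µg/mL doxycycline, evenly spaced, with filled points where the authors' q was below 0.05. LEU9 and ILV3 drop most steeply, to 22.1% and 22.8% of the control at 0.5 µg/mL, and ILV6 least, to 67.9%.

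The levels in control cells and in the 3 doxycycline groups are given next in pathway order. The control levels are those of the table for 0.01 µg/mL. Those of the other tables, which were scaled separately, had median ratios of 0.997 and 0.996 to them.

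ILV1, the threonine deaminase gene (YER086W, chromosome V, 328477 to 330207), had 373 FPKM in the control and 241, 211 and 167 FPKM at 0.01, 0.1 and 0.5 µg/mL per the authors' deposited tables. It was called lower at every dose, at -0.63 (q = 0.0103), -0.82 (q = 0.000329) and -1.16 (q = 0.000273) on the log2 scale. Each step down in level was smaller than the drop between the control and the lowest dose.

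The acetolactate synthase genes were called at the highest dose only. ILV2 (YMR108W, chromosome XIII, 484084 to 486147), for the catalytic subunit, had 335 FPKM in the control and 279, 280 and 201 FPKM with rising dose per the authors' deposited tables. Its log2 fold changes of -0.26 (q = 0.456) and -0.26 (q = 0.366) were not called at the lower doses, and it fell at 0.5 µg/mL (-0.73, q = 0.00136), per the authors' deposited tables. ILV2 was the 1 gene of the 10 whose log2 fold change was not lower at each higher dose. Its step between 0.01 and 0.1 µg/mL was only 0.007. The other 9 and 31.6% of the 5041 genes tested at every dose were below 0 at 0.01 µg/mL and lower at each higher dose. Relative to the median of all tested genes the exceptions differ, and ILV2 kept the order (-0.19, -0.23 and -0.42). BAT2, ILV5 and ILV6 did not, being closer to that median at 0.5 µg/mL (-0.51, -0.41 and -0.25) than at 0.1 µg/mL (-0.66, -0.63 and -0.37). ILV6 (YCL009C, chromosome III, 104619 to 105548), for the regulatory subunit, had 476 FPKM in the control and 378, 360 and 322 FPKM with rising dose per the authors' deposited tables. It was called at 0.5 µg/mL alone, at a log2 fold change of -0.56 (q = 0.0179 per the authors' deposited table). Relative to the median of all tested genes this was -0.25, the smallest change of the 10 at that dose.

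ILV5 and ILV3 encode the enzymes of the next steps, and both fell at the higher doses. ILV5 (YLR355C, chromosome XII, 838066 to 839253), the most abundant of the 10 per length, had 1435 FPKM in the control and 1037, 910 and 870 FPKM with rising dose per the authors' deposited tables. It was not called at 0.01 µg/mL (-0.47, q = 0.190) and fell at 0.1 (-0.65, q = 0.0146) and 0.5 µg/mL (-0.72, q = 0.00779), per the authors' deposited tables. ILV3 (YJR016C, chromosome X, 464451 to 466208), the dehydratase gene, had 922 FPKM in the control and 497, 327 and 209 FPKM with rising dose per the authors' deposited tables. Its log2 fold changes there were -0.89 (q = 0.00289), -1.49 (q = 0.000329) and -2.13 (q = 0.000273). The last 2 q-values are the smallest that occur at those doses, and 886 genes at 0.1 µg/mL and 1112 genes at 0.5 µg/mL share them. The log2 fold change of ILV3 was lower at every step, with differences of -0.60 between 0.01 and 0.1 µg/mL and -0.64 between 0.1 and 0.5 µg/mL. Counted from the lowest log2 fold change, ILV3 ranked 150 of 5049 genes at 0.01, 52 of 5054 at 0.1 and 24 of 5047 at 0.5 µg/mL.

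At the entry to leucine synthesis, both isopropylmalate synthase genes fell, the less abundant one at every dose. LEU9 (YOR108W, chromosome XV, 523027 to 524841) had 149 FPKM in the control and 64.7, 43.3 and 32.7 FPKM with rising dose per the authors' deposited tables. Its log2 fold changes were -1.20 (q = 0.000608), -1.77 (q = 0.000329) and -2.18 (q = 0.000273) per the authors' deposited tables, the largest of the 10 at each dose. LEU9 ranked 38, 25 and 22 from the lowest log2 fold change of all tested genes. LEU4 (YNL104C, chromosome XIV, 424895 to 426754) had 489 FPKM in the control and 335, 296 and 222 FPKM with rising dose per the authors' deposited tables. It was not called at 0.01 µg/mL (-0.55, q = 0.0650) and fell at 0.1 (-0.72, q = 0.00316) and 0.5 µg/mL (-1.13, q = 0.000273), per the authors' deposited tables. LEU9 was the lowest of the 10 in FPKM in every group.

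LEU1 (YGL009C, chromosome VII, 476313 to 478652), the isopropylmalate isomerase gene, had 403 FPKM in the control and 320, 287 and 201 FPKM with rising dose per the authors' deposited tables. It was not called at 0.01 µg/mL (-0.33, q = 0.332) and just missed the threshold at 0.1 µg/mL (-0.49, q = 0.0532), and it fell at 0.5 µg/mL (-0.999, q = 0.000273), per the authors' deposited tables. Its largest step was the last, of -0.51 on the log2 scale between 0.1 and 0.5 µg/mL, where the median step of all tested genes was -0.29.

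The aminotransferase genes fell at all 3 doses. BAT1 (YHR208W, chromosome VIII, 517532 to 518713) had 876 FPKM in the control and 580, 524 and 431 FPKM with rising dose per the authors' deposited tables, with log2 fold changes of -0.60 (q = 0.0412), -0.74 (q = 0.00422) and -1.02 (q = 0.000273). BAT2 (YJR148W, chromosome X, 705744 to 706874) had 511 FPKM in the control and 327, 317 and 289 FPKM with rising dose per the authors' deposited tables, with log2 fold changes of -0.65 (q = 0.00693), -0.68 (q = 0.00337) and -0.81 (q = 0.000273). Most of the BAT2 change was thus present at the lowest dose, and its later steps were -0.04 and -0.13 on the log2 scale. Over the 10 genes the median step was -0.16 between 0.01 and 0.1 µg/mL and -0.37 between 0.1 and 0.5 µg/mL, against median steps of 0.05 and -0.29 for all tested genes. Steps between doses were not tested.

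**Figure D2:**
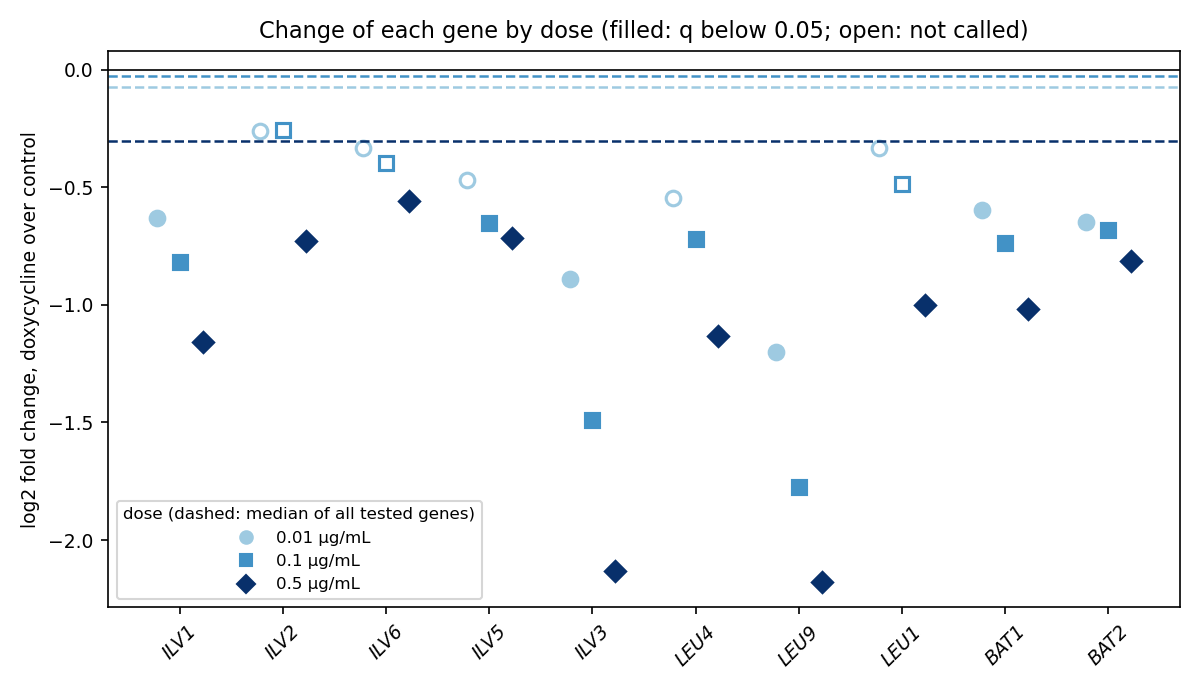
Log2 fold change of each gene over the control at 0.01 (circles), 0.1 (squares) and 0.5 µg/mL doxycycline (diamonds), filled where q was below 0.05, with dashed lines at the medians of all tested genes (-0.08, -0.03 and -0.30). LEU9 and ILV3 reach -2.18 and -2.13, and the other 8 genes lie between -1.16 and -0.56 at the highest dose.

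The order of size at 0.5 µg/mL was LEU9, ILV3, ILV1, LEU4, BAT1, LEU1, BAT2, ILV2, ILV5 and ILV6. LEU9 and ILV3 stood apart from the other 8, the gap between ILV3 (-2.13) and ILV1 (-1.16) being larger than the range of those 8. Neighbours in this order cannot be separated, since the spread between samples is not in the tables. With at least a 2-fold change, 1 of 10 fell at 0.01 µg/mL (LEU9), 2 at 0.1 µg/mL (LEU9 and ILV3) and 5 at 0.5 µg/mL (LEU9, ILV3, ILV1, LEU4 and BAT1), against 1.92%, 4.47% and 10.1% of all tested genes.

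**Figure D3:**
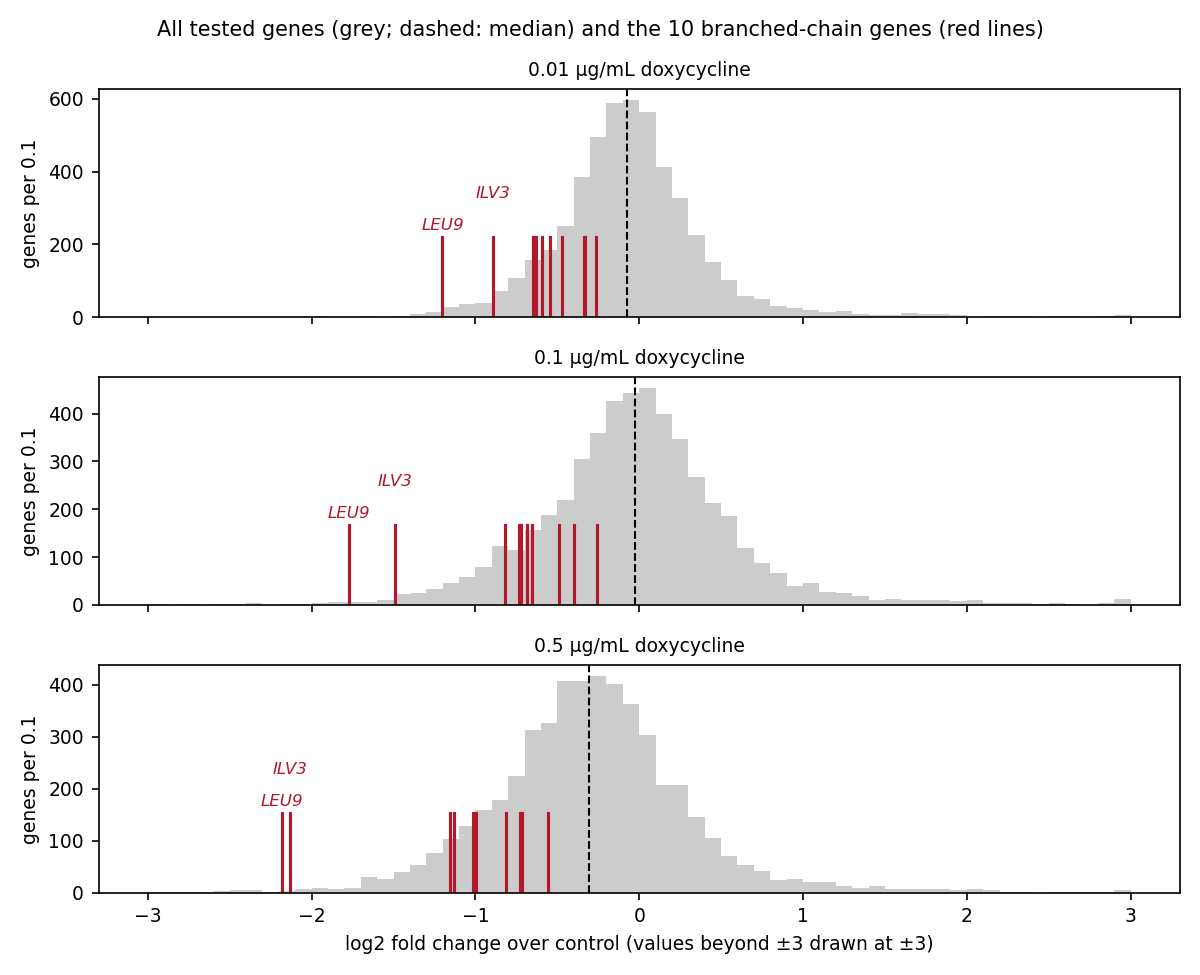
Number of tested genes per 0.1 of log2 fold change over the control at each dose (grey, dashed line at the median) with the 10 branched-chain genes as red lines. All 10 red lines lie left of the median at each dose, and LEU9 and ILV3 lie in the far left tail, at ranks 22 and 24 of 5047 at 0.5 µg/mL.

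Pairs of partner genes were compared by the ratio of their FPKM, which is per length. The ratio of LEU4 to LEU9 was 3.29 in the control, 5.17 at 0.01, 6.83 at 0.1 and 6.80 at 0.5 µg/mL, so that LEU9 made up 12.8% of the sum of both at 0.5 µg/mL and 23.3% in the control. The ratio of BAT1 to BAT2 was 1.71 in the control and 1.77, 1.65 and 1.49 with rising dose. That of ILV2 to ILV6 was 0.704 in the control and 0.739, 0.777 and 0.625 with rising dose. That of ILV5 to ILV3, a pair chosen after the values were seen, was 1.56 in the control and 2.09, 2.78 and 4.15 with rising dose. The synthase pair and the ILV5 and ILV3 pair therefore changed proportion by 1.05 and 1.41 on the log2 scale at 0.5 µg/mL, and the other pairs by -0.20 (BAT1 over BAT2) and -0.17 (ILV2 over ILV6). These differences between genes were not tested.

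**Figure D4:**
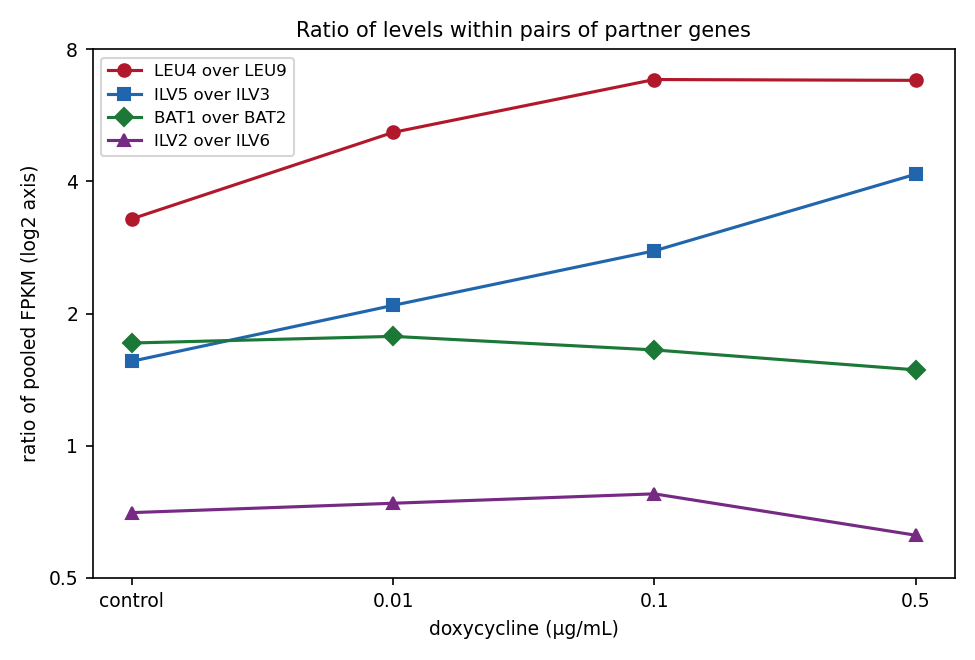
Ratio of pooled FPKM within 4 pairs of partner genes (log2 axis) in the control and at 0.01, 0.1 and 0.5 µg/mL doxycycline, evenly spaced. LEU4 over LEU9 reaches 6.80 and ILV5 over ILV3 4.15 at 0.5 µg/mL, above their control ratios of 3.29 and 1.56, and the other 2 ratios stay near their control values.

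The coding sequences of LEU4 and LEU9 are alike, which bears on how reads are assigned. Over 1808 aligned bases they were identical at 79.4%, and BAT1 and BAT2 at 72.0% over 1128 aligned bases. The longest identical run of LEU4 and LEU9, shown in capitals with 10 bases on either side, is 41 bases.
LEU9, coding strand, plus strand, chrXV:523836-523896: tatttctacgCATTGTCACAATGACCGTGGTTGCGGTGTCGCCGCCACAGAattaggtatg
LEU4, coding strand, minus strand, chrXIV:425882-425942: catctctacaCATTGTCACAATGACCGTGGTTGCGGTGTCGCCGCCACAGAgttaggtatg
The longest run shared by BAT1 and BAT2 is 17 bases. No stretch of 50 bases of any of the 10 genes occurs a second time in the R64 assembly, so a read of that length without errors maps to 1 place. The read length and the handling of reads with several matches were not stated in the sources used here.

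Position and motifs were set beside the changes, with no test. The genes lie on 9 chromosomes, only ILV3 and BAT2 sharing one. The 6 genes with a Leu3 motif had a median log2 fold change of -0.91 (from -2.18 to -0.72) at 0.5 µg/mL, and the 4 without it -1.14 (from -2.13 to -0.56), so the ranges of both groups overlap. LEU9 has the motif and ILV3 does not. Among the other tested genes, 155 have the Leu3 motif in this window, of which 50 fell at 0.5 µg/mL (32.3%) and 19 rose (12.3%), with a median of -0.21. Of 994 other genes with a Gcn4 motif 415 fell at that dose (41.8%) and 65 rose (6.54%), with a median of -0.34. Of all tested genes 38.9% fell and 7.49% rose at that dose, with a median of -0.30. The share that fell at 0.5 µg/mL was thus lower with the Leu3 motif and slightly higher with the Gcn4 motif. At 0.01 and 0.1 µg/mL 19.4% and 23.2% of the other genes with the Leu3 motif fell. With the Gcn4 motif 18.0% and 22.3% fell at those doses. Both were above the 15.4% and 20.4% of all tested genes, and none of these differences was tested. Of the nearest genes upstream of the 10, 9 were tested, of which 2, 4 and 4 fell with rising dose and 0 rose. Among all tested genes 15.4%, 20.4% and 38.9% fell and 8.75%, 17.6% and 7.49% rose. RGS2, 744 bases from LEU9 on the same strand, fell at all 3 doses (-0.90, -1.16 and -1.94 per the authors' deposited tables). ESS1, 312 bases from ILV3 on the same strand, was not called at any dose (0.08, 0.14 and -0.14 per the authors' deposited tables). SPG4, 722 bases from ILV2 on the same strand, fell at all 3 doses (-2.05, -1.94 and -2.41 per the authors' deposited tables), while ILV2 itself was called at 0.5 µg/mL only. These neighbours were chosen after their values were seen.

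The counts of the lists that follow are to be read beside the 15.4%, 20.4% and 38.9% of all tested genes that fell with rising dose. In precursor supply the early steps fell and the last steps to threonine were not called. Of 6 genes that make threonine from aspartate or break it down, 4 fell and 0 rose at each dose, with a median log2 fold change of -1.06 at 0.5 µg/mL. HOM2 and HOM6, for the semialdehyde and homoserine dehydrogenases, had -1.30 and -1.22 at 0.5 µg/mL per the authors' deposited table, the catabolic deaminase gene CHA1 -1.09 and the aspartate kinase gene HOM3 -1.02. THR1 and THR4, for those last steps, were not called (-0.45 and -0.14 per the authors' deposited table for 0.5 µg/mL).

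Among transport genes, the mitochondrial carrier OAC1, which moves oxaloacetate and isopropylmalate, fell at all 3 doses. Its level was 307 FPKM in the control and 171, 127 and 94.9 FPKM with rising dose, log2 fold changes of -0.84, -1.27 and -1.69 per the authors' deposited tables. The permease genes AGP1 and GAP1 also fell at all 3 doses, to -2.38 and -1.64 at 0.5 µg/mL, and TAT1 at 0.1 and 0.5 µg/mL, to -0.99, per the authors' deposited tables. BAP3, a branched-chain permease gene, was not called at any dose, so that 3, 4 and 4 of 5 fell with rising dose and 0 rose. BAP2 and GNP1 were not analysed here.

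Of the activators' own mRNAs, LEU3 was called at the highest dose alone and GCN4 at none. LEU3 had 49.96 FPKM in the control and 41.4, 39.4 and 31.7 FPKM with rising dose per the authors' deposited tables (log2 fold change -0.65 and q = 0.000951 at 0.5 µg/mL). GCN4, looked at outside the naming rule because its motif was searched, stood at 1686 FPKM in the control and 1745, 1793 and 1785 FPKM with rising dose and was not called (0.05, 0.09 and 0.09 per the authors' deposited tables). GCN4 is regulated mainly in translation, and protein was not analysed here. Of 10 regulator genes, 1 fell and 0 rose at 0.01 µg/mL, 1 fell and 1 rose at 0.1 µg/mL and 5 fell and 0 rose at 0.5 µg/mL (median -0.45, or -0.14 relative to all genes). Among all tested genes 15.4%, 20.4% and 38.9% fell with rising dose. For a list of 10 genes the share that fell was thus near that background at each dose. It was slightly below it at 0.01 and 0.1 µg/mL and slightly above it at 0.5 µg/mL, and the difference was not tested. GLN3, a nitrogen regulator, fell at all 3 doses (-0.50, -0.62 and -0.77 per the authors' deposited tables). SSY5 and SSY1 of the amino acid sensor were called at 0.5 µg/mL only (-0.61 and -0.49), and the gene that rose at 0.1 µg/mL was STP2 (0.64), a factor of the same sensor pathway, per the authors' deposited tables.

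Of 10 textbook Leu3 targets, 8 were tested, and of these 3, 6 and 8 fell with rising dose and 0 rose, at a median of -1.01 at 0.5 µg/mL. Among them are 5 of the branched-chain genes and OAC1, so this list is not independent of the values above. The remaining targets were MAE1, the malic enzyme gene, at -0.74, -1.10 and -1.53 (called at each dose), and GDH1, a glutamate dehydrogenase gene, at -0.36, -0.57 and -0.62 (called at the higher 2) per the authors' deposited tables.

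Most genes that use the products were called at the highest dose only or not at all. The isoleucyl-, leucyl- and valyl-tRNA synthetase genes ILS1, CDC60 and VAS1 fell at 0.5 µg/mL (-0.99, -0.84 and -0.55 per the authors' deposited table), of which ILS1 also fell at 0.1 µg/mL (-0.64) and 0 of 3 were called at 0.01 µg/mL. ECM31 and PAN5, which lead from ketoisovalerate to pantothenate, fell at 0.5 µg/mL only (-0.62 and -0.44 per the authors' deposited table), and PAN6 was not called (-0.24). Of 7 genes of the Ehrlich pathway, which breaks the keto acids down to fusel alcohols, 1, 1 and 3 fell with rising dose and 0, 1 and 0 rose, shares near the 15.4%, 20.4% and 38.9% of all tested genes that fell. ADH5, ARO10 and THI3 fell at 0.5 µg/mL (-1.46, -0.77 and -0.51), and PDC5 was at 0.34 and not called there and rose at 0.1 µg/mL (0.56), per the authors' deposited tables. The median of that list at 0.5 µg/mL was -0.22, or 0.08 relative to all genes.

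**Figure D5:**
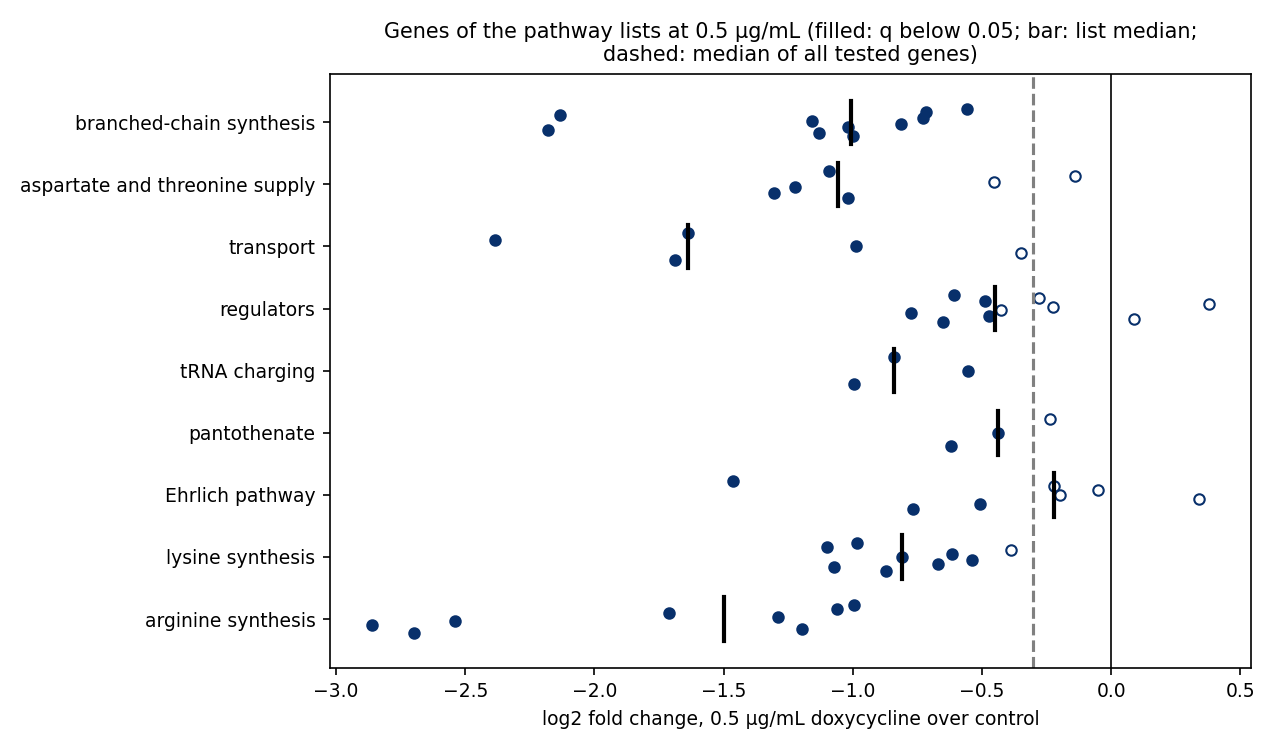
Log2 fold change of each tested gene of 9 lists at 0.5 µg/mL doxycycline over the control (points, spread vertically for visibility; filled where q was below 0.05), with a bar at each list median and a dashed line at the median of all tested genes (-0.30). The branched-chain median (-1.01) lies near those of precursor supply (-1.06) and lysine synthesis (-0.81), and arginine synthesis (-1.50) lies lower.

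Other amino acid pathways give the scale. Of 9 lysine synthesis genes, 7 fell at 0.01, 7 at 0.1 and 8 at 0.5 µg/mL and 0 rose, with medians of -0.52, -0.48 and -0.81, led at 0.5 µg/mL by the homocitrate synthase genes LYS20 (-1.10) and LYS21 (-0.99), LYS2 (-1.07) and LYS1 (-0.87), per the authors' deposited table. All 8 arginine synthesis genes described here fell at each dose, with medians of -1.10, -1.28 and -1.50, led at 0.5 µg/mL by ARG3 (-2.86), ARG1 (-2.70), ARG4 (-2.54) and ARG7 (-1.71), per the authors' deposited table. The branched-chain medians of -0.57, -0.70 and -1.01 lay between those of the lysine and arginine lists at each dose, and the differences between lists were not tested.

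By the distance between their 3 log2 fold changes and the median profile of the 10, the most similar other genes were EMP70 (-0.55, -0.69 and -1.02), PCL9 (-0.54, -0.70 and -0.997), PUS7 (-0.58, -0.68 and -1.04), PRP39 (-0.61, -0.70 and -0.996) and ERG13 (-0.57, -0.67 and -0.98), per the authors' deposited tables. Their Euclidean distances over the 3 doses were 0.0303 to 0.0417, and BAT1 was the nearest of the 10 themselves at 0.0429, while LEU9 and ILV3 were the farthest at 1.71 and 1.41.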

How the data were processed

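RNA of 12 samples, in 4 groups of 3, was sequenced by the authors from polyA libraries. The tools were FastQC, Bowtie2 and Cuffdiff and the build R64, per the submitters' processing notes, and their versions, strand handling and annotation were not stated in the sources used here. Per the file headers, each of 3 deposited tables sets the control (named WT in its columns) against 1 dose. The FPKM values were deposited as 1 pooled level per group, and the unit was inferred from the Cuffdiff column names. The authors' log2 fold changes are doxycycline over control with no pseudocount, as a recalculation from the levels showed. Deposited q-values were used unaltered, as the authors gave them.

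A gene with a level of 0 or with q equal to 1 counted as not tested, leaving 5049, 5054 and 5047 genes with rising dose. Symbols that a spreadsheet had altered (2 genes) were restored from identifiers. A further 3 lines of each table are not analysed here. No test was added, since the tables hold no value per sample. Counts, medians, ranks and motif searches were computed with Python 3.11.15, pandas 2.3.3 and numpy 2.4.6. The filter for tested genes, the calls and the searches for the Leu3 motif and TGACTC were tested on simulated data. The reference assembly is R64, as in the notes. All 10 members were named, and from the other lists all of 3 genes or the 4 with the largest absolute change at 0.5 µg/mL, with exceptions named; some genes of these lists are not reported here. The members and lists were chosen with earlier results of these data known.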

Additional observations from a re-analysis of the deposited data

How the results depend on the processing

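The direction of every one of the 10 genes and of their median held at each dose under a pseudocount of 1 FPKM, a control averaged over the 3 tables, and values taken relative to the median of all tested genes. The authors' calls were not made anew. A pseudocount cannot turn a direction, and the control levels nearly coincide, with median ratios of 0.997 and 0.996 to the first. Those 2 checks were therefore weak. A minimum level of 10 FPKM changed no count of the 10, and it could not, since their lowest level was 32.7 FPKM (LEU9 at 0.5 µg/mL). With q below 0.01, 3 of the 10 fell at 0.01 µg/mL instead of 5, and over all tested genes 488 fell at that dose instead of 779. With at least a 2-fold change from 1, the numbers of the 10 that fell were 1, 2 and 5 with rising dose. Over all tested genes this 2-fold minimum from 1 left 97, 226 and 509 lower and 117, 214 and 125 higher. Counted from the median of all tested genes, 1, 2 and 2 of the 10 fell. The share of all tested genes under that last rule was not computed, so those counts have no background. No paired analysis was possible because the tables hold 1 pooled level per group, and for the same reason no sample could be left out. Depth is unknown, so no counting interval or floor is given.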
